A study of Mus musculus with 6 samples.

Results

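The RANK axis was followed through 8 genes in mouse femur after focal radiation. They were chosen by name, and all 8 were found among the 43346 genes of the table: the ligand Tnfsf11 (RANKL), its decoy receptor Tnfrsf11b (osteoprotegerin), the receptor Tnfrsf11a (RANK), the receptor Lgr4, the costimulatory receptor Oscar, the adaptor Traf6 and the transcription factors Fos and Nfatc1. The animals were C57BL/6 mice aged 4 months. In the radiated group (R) the right femur received a single image-guided dose of 24 Gy, at 6.6 Gy per minute, over 5 mm of the distal metaphysis, the flared end of the shaft near the knee. In the non-radiated group (NR) the femur came from the opposite, left leg, so the controls carry whatever the radiation did to the rest of the animal. Each group gave 3 RNA-seq libraries from homogenized bone, freed of muscle, on day 21. The labels do not say that the 3 libraries of a group came from separate animals, so p-values measure the spread between these libraries.

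In bone, RANKL is made by osteoblast-lineage cells, osteocytes, marrow stromal cells and lymphocytes. It binds RANK on precursors of osteoclasts, the bone-resorbing cells, and on osteoclasts themselves. RANK recruits TRAF6, which leads to NF-kappaB and to AP-1 factors such as FOS, and these switch on NFATC1, the master transcription factor of the osteoclast. Osteoprotegerin is secreted, traps the ligand and so limits resorption, which is why the RANKL to osteoprotegerin ratio is a customary readout. OSCAR adds a calcium signal through the Fc receptor gamma chain. LGR4 is a receptor for R-spondins in Wnt signalling and has also been described as a second, inhibitory receptor of RANKL.

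Of the 8 members 2 changed. Tnfrsf11a rose 1.38-fold and Lgr4 fell, to a level 1.47-fold lower, while the ligand, the decoy receptor and their ratio did not differ beyond the spread between libraries. All 8 members passed the filter on low counts. By edgeR's quasi-likelihood test 7.8% of the 18757 genes tested had a Benjamini-Hochberg adjusted p under 0.05, 4.56% higher and 3.24% lower in R. NR and R libraries were fully separate for 3 of 8 members (Tnfrsf11a, Lgr4 and Nfatc1), and for 25.9% of the genes tested. The median log2 fold change of the members was 0.16, with 5 above and 3 below 0, and that of all genes tested was 0.00. The members' median was 0.09 without R library 3, 0.10 without NR library 2 and 0.35 under library totals alone, where that of all genes was 0.19.

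RefSeq promoter windows of build GRCm38.p6, from 250 bases before to 50 bases after the gene start, were found for 6 of 7 members looked up (not Tnfrsf11b, and Nfatc1 was not looked up). Those of the ligand and of the receptor genes that changed are shown, because they differ in composition. Capitals mark matches on either strand to the TATA box (letters TATAA), the CCAAT box, the GC box (letters GGGCGG) and the AP-1 motif (letters TGANTCA). Matches do not overlap, except that TTATAA in Tnfsf11 reads as a TATA box on both strands.
Tnfsf11, chr14:78307994-78308293, minus strand: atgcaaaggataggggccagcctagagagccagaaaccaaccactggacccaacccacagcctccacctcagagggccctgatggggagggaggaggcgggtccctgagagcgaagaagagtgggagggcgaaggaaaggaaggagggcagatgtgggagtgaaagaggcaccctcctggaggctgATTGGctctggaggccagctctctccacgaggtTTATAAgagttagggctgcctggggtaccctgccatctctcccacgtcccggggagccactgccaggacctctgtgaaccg
Tnfrsf11a, chr1:105780473-105780772, plus strand: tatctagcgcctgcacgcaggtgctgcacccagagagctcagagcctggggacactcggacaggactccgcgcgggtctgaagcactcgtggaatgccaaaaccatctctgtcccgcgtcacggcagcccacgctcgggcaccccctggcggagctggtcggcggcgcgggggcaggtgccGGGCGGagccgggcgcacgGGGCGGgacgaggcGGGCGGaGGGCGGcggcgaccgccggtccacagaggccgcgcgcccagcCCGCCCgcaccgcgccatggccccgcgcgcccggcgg
Lgr4, chr2:109917397-109917696, plus strand: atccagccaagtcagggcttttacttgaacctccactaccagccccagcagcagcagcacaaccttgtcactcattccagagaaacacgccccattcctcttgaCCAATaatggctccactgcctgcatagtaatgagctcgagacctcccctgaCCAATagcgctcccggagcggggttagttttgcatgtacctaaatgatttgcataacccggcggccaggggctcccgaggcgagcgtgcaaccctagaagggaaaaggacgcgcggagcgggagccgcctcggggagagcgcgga

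The Tnfrsf11a window was 76.7% G and C, against a median of 52.7% over 32851 windows, and held 5 GC boxes with neither of the other core motifs. The Lgr4 window was 58.3% G and C and held 2 CCAAT boxes. The Tnfsf11 window was 61.7% G and C, with a CCAAT box on the other strand and a TATA box nearer to the start. Of all windows 35.66% held a GC box, 37.41% a CCAAT box, 24.87% a TATA box and 7.808% the AP-1 motif, which was in none of the 3 shown. A match is a description of letters and not a binding site.

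Levels are given as CPM, the usual unit of a gene's count scaled to library size, here with TMM scaling, and levels of different genes are compared as CPM per kilobase of gene length. In the NR libraries Nfatc1 was the highest member, at 10.7 ± 0.768 CPM per kilobase (mean ± SD, n = 3), followed by Traf6 at 8.60 ± 0.209. These were separated from each other and from the rest in every NR library. Fos (3.41), Tnfrsf11b (3.25), Tnfrsf11a (3.02), Oscar (2.69) and Lgr4 (2.63 CPM per kilobase) had ranges that overlapped those of their neighbours in that order. Tnfsf11 was the lowest, at 1.499 ± 0.352 CPM per kilobase, and its highest NR value, 1.85, lay just under the lowest value of Oscar, 1.86. In the R libraries Nfatc1, Traf6 and Fos kept the first 3 places, Tnfrsf11a was the fourth at 4.18, Tnfrsf11b the sixth at 2.84, and Lgr4 at 1.79 overlapped Tnfsf11 at 1.42.

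**Figure D1:**
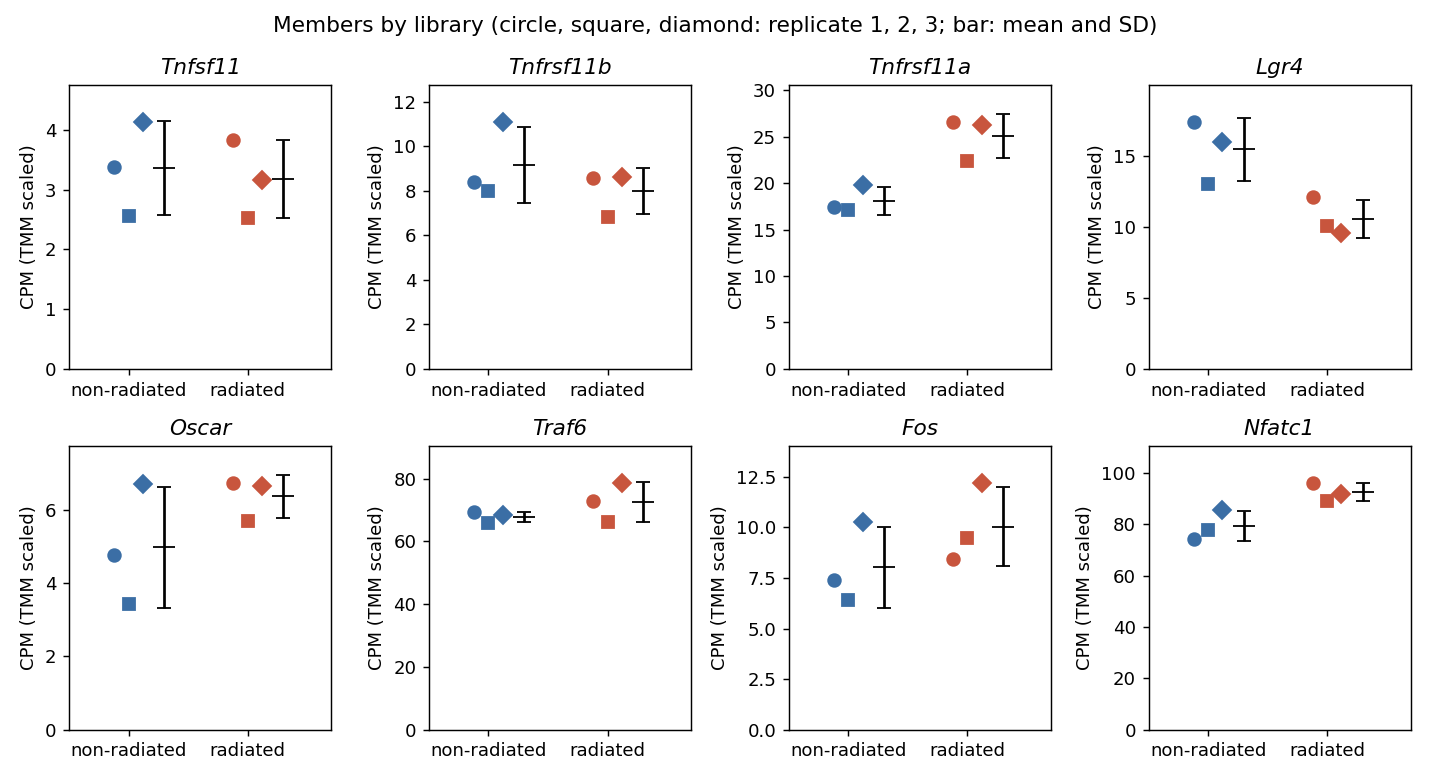
Level of each member in each library, as TMM-scaled CPM on a linear axis from 0, for non-radiated (blue) and radiated (red) femur; symbols mark the replicate number and bars the mean and SD (n = 3). The groups are separate for Tnfrsf11a, Lgr4 and Nfatc1 and overlap for the other 5 genes.

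Depth and the makeup of the tissue differed between libraries. Total gene counts were 34034251 to 48708383 per library, and the row AY036118 held 32.9% of the counts in NR library 2 and 0.321% to 5.61% in the others. NR library 2 was the lowest NR library for 7 of the 8 members (31.1% of all genes tested were lowest there), and R library 2 the lowest R library for 6 of 8 (32.6% of all genes). R library 2 also had the highest skeletal muscle signal, with 10 marker genes summing to 2143 CPM, against 168 and 668 in the other R libraries and 145 to 301 in the NR libraries. A fit on library totals without AY036118 called 3 members (Tnfrsf11a, Lgr4 and Nfatc1), against 2 in the main fit. Beyond this scaling, the part of AY036118 and of muscle in the members' values was not tested. No marker of the 12 cell type lists was at 0 in any library, and osteoclast, osteoblast and osteocyte markers were all present. In bulk tissue, fewer cells of a type and less RNA per cell cannot be told apart.

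The ligand gene Tnfsf11 (ENSMUSG00000022015, chromosome 14, 78277445 to 78308043, mm10) was low. It had 123, 64 and 175 counts in NR libraries 1, 2 and 3 and 145, 135 and 141 counts in R libraries 1, 2 and 3. Scaled to the library this was 3.37, 2.56 and 4.13 CPM in NR and 3.83, 2.53 and 3.16 CPM in R. All 3 R values lay close to or inside the NR range. Its fitted log2 difference was -0.10 (SE 0.21, 95% interval -0.58 to 0.38, edgeR adjusted p 0.849). It had no steady sign: it was 0.08 without NR library 3, 0.04 without R library 2 and 0.07 under library totals alone.

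The decoy receptor gene Tnfrsf11b (ENSMUSG00000063727, chromosome 15, 54250619 to 54278484) was at 8.39, 7.99 and 11.1 CPM in NR libraries 1, 2 and 3 and at 8.56, 6.82 and 8.63 CPM in R libraries 1, 2 and 3. The highest value was in NR library 3 and the other 5 libraries lay within a narrow band. Its fitted log2 difference was -0.20 (SE 0.15, 95% interval -0.55 to 0.14, edgeR adjusted p 0.512), and without NR library 3 it was -0.04. Both ligand and decoy receptor were highest in NR library 3 among the controls and lowest in library 2 of each group.

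The Tnfsf11 to Tnfrsf11b ratio needs no scaling between libraries. As a ratio of counts per kilobase it was 0.507, 0.403 and 0.469 in NR libraries 1, 2 and 3 and 0.564, 0.467 and 0.462 in R libraries 1, 2 and 3. The decoy receptor transcript was therefore the more abundant in all 6 libraries. The 95% Wilson intervals, which cover counting error only, ran from 0.305 to 0.534 in NR library 2 and from 0.464 to 0.686 in R library 1, the lowest and the highest library, so even these overlapped. The group means were 0.460 ± 0.0523 in NR and 0.498 ± 0.0575 in R (mean ± SD, n = 3 each). The log2 ratio was 0.11 higher in R, with a two-sided exact permutation p of 0.6, where 3 against 3 allows no p under 0.1. Within same-numbered pairs the log2 ratio differed by 0.15, 0.21 and -0.02 for numbers 1, 2 and 3. Without NR library 2 or R library 1 the difference was 0.02.

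**Figure D2:**
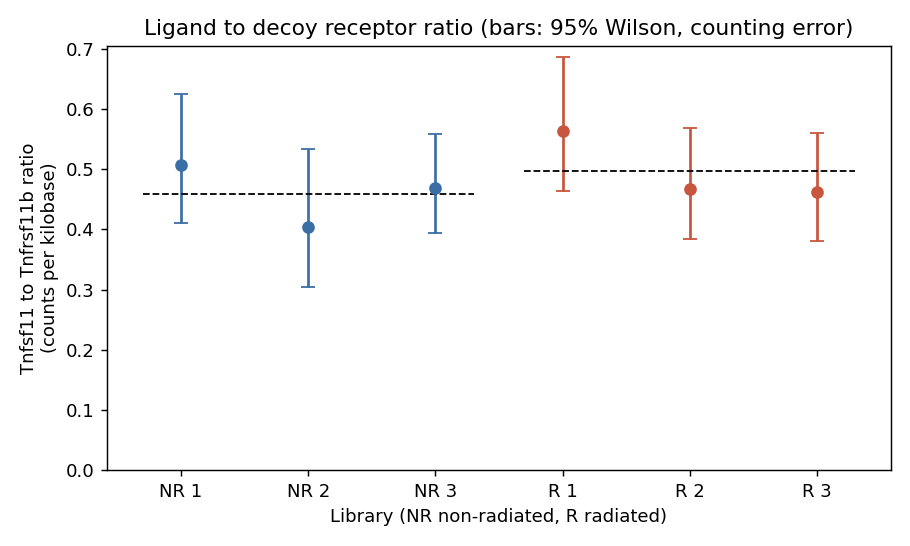
Tnfsf11 to Tnfrsf11b ratio of counts per kilobase in each library, on a linear axis from 0, with 95% Wilson intervals for counting error and the group mean as a dashed line. The 6 values lie between 0.403 and 0.564 and the groups overlap.

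Tnfrsf11a, the receptor through which the ligand drives osteoclast formation (ENSMUSG00000026321, chromosome 1, 105780718 to 105847981), was at 17.4, 17.1 and 19.8 CPM in NR libraries 1, 2 and 3 and at 26.6, 22.3 and 26.2 CPM in R libraries 1, 2 and 3. Every R library was above every NR library. It rose 1.38-fold (log2 fold change 0.47, SE 0.09, 95% interval 0.25 to 0.68, edgeR adjusted p 0.0178). The rise was therefore also present in each same-numbered pair, at 0.61, 0.39 and 0.40 on the log2 scale. Of the genes tested 22.3% were higher in all 3 pairs. The direction held in all 13 alternatives and the call in 9. It was lost without NR library 1 (adjusted p 0.0711), NR library 2 (0.0827) or R library 1 (0.0823), and under library totals alone (0.0659).

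Markers of macrophages, the lineage that expresses RANK and gives rise to osteoclasts, were also higher in R. The 6 macrophage markers, Csf1r among them, summed to 909 to 1051 CPM in NR and 1166 to 1326 CPM in R libraries, and 3 of the 6 were called higher. All 6 had positive log2 fold changes in all 13 alternatives, but the count called was 1 without NR library 2, without R library 1 or under library totals alone, 2 without NR library 1, NR library 3 or R library 2, and 5 by DESeq2's Wald test. Of 12 osteoclast markers, 7 had positive and 5 negative log2 fold changes, with a median of 0.08. This balance had no steady sign: 3 of 12 were positive without NR library 2 (median -0.12), 5 of 12 without R library 1 (-0.03) and 8 of 12 without NR library 3 (0.21). Acp5 and Ctsk, an acid phosphatase and a collagen-cutting protease of mature osteoclasts, were at 276 ± 54.6 and 373 ± 85.5 CPM in NR and 291 ± 38.4 and 403 ± 48.9 CPM in R (n = 3 each), with edgeR adjusted p of 0.813 and 0.753. The osteoclast list as a whole summed lower in R (2774 to 3021 CPM) than in NR (3200 to 3462 CPM). Without Itgb3, Car2 and Mmp9, also abundant in platelet, erythroid and neutrophil lineages and left out after their values were seen, the sums overlapped at 962 to 1156 CPM in R and 804 to 1110 CPM in NR. Chosen in the same way because they were the 2 osteoclast markers called, Itgb3 fell (log2 fold change -1.09) and Atp6v0d2, a proton pump subunit, rose (0.33, adjusted p 0.0396, and 0.0771 to 0.146 without NR library 1 or 2 or R library 1 or 3, and 0.176 under library totals alone). Itgb3 is also a platelet integrin gene, and all 6 megakaryocyte markers were called lower (5 under library totals alone), summing to 921 to 985 CPM in NR and 316 to 379 CPM in R. The part of megakaryocytes in the Itgb3 value was not tested. Within the groups the macrophage sum and Tnfrsf11a did not share an order. NR library 3 had the lowest NR macrophage sum (909 CPM) and the highest NR value of Tnfrsf11a (19.8 CPM). R library 1 was the highest R library in both. The lowest was R library 3 for the sum (1166 CPM) and R library 2 for Tnfrsf11a (22.3 CPM). With 3 libraries per group these orders are a description only. The part of macrophage content in the Tnfrsf11a rise was not tested.

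Lgr4 (ENSMUSG00000050199, chromosome 2, 109917647 to 110014257) was at 17.4, 13.0 and 16.0 CPM in NR libraries 1, 2 and 3 and at 12.1, 10.04 and 9.55 CPM in R libraries 1, 2 and 3. Every R library was below every NR library, with 13.0 CPM in NR library 2 and 12.1 CPM in R library 1 the nearest values. Its level was 1.47-fold lower in R (log2 fold change -0.56, SE 0.13, 95% interval -0.85 to -0.26, edgeR adjusted p 0.0332). With the groups separate it was therefore also lower in each same-numbered pair, at -0.52, -0.37 and -0.74. Of the genes tested 19.6% were lower in all 3 pairs. The direction held in all 13 alternatives and the call in 8. It was lost without NR library 1 (adjusted p 0.119), NR library 3 (0.0779), R library 2 (0.0844) or R library 3 (0.0874), and under library totals alone (0.531).

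Under library totals alone Lgr4 was at -0.39 and Tnfrsf11a at 0.65. Under library totals without AY036118 they were at -0.53 and 0.50, and both were called (edgeR adjusted p 0.0436 and 0.0159). Since one receptor was higher and the other lower, their ratio within a library also moved. Lgr4 per Tnfrsf11a, per kilobase, was 1.02, 0.775 and 0.822 in NR libraries 1, 2 and 3 and 0.462, 0.457 and 0.370 in R libraries 1, 2 and 3. This ratio was computed after the values were seen and is a description. Marker sums of 2 stromal lineages were lower beside it: 7 osteoblast markers summed to 4486 to 6772 CPM in NR and 3338 to 4217 CPM in R, and 6 marrow stroma markers to 1269 to 1292 CPM in NR and 993 to 1119 CPM in R. Sums of 2 related lists overlapped between the groups. Osteocyte markers summed to 152 to 222 CPM in NR and 118 to 160 CPM in R. Growth plate chondrocyte markers summed to 141 to 398 CPM in NR and 155 to 234 CPM in R. The part of these cells in the Lgr4 difference was not tested.

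**Figure D3:**
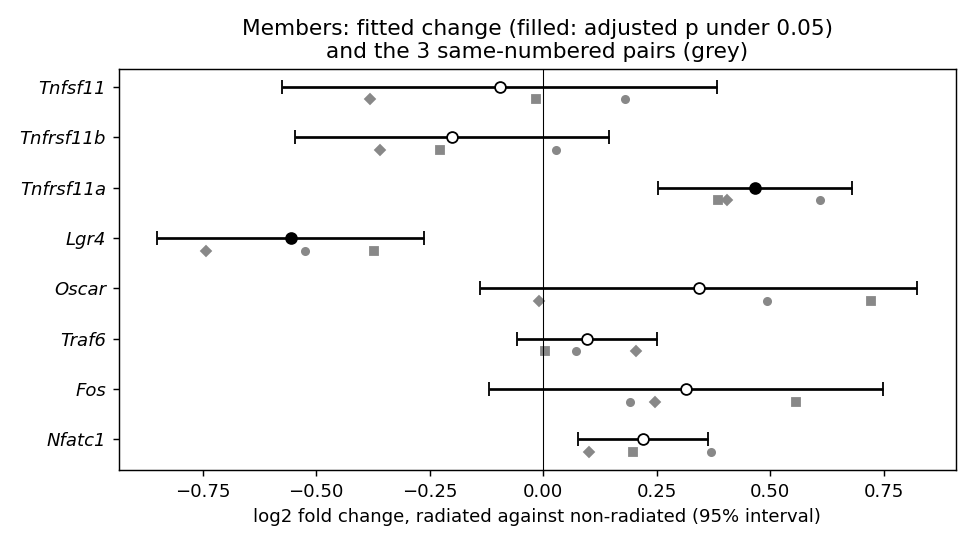
Fitted log2 fold change of each member, radiated against non-radiated, with its 95% interval (black; filled where the edgeR adjusted p was under 0.05) and the log2 difference within each same-numbered pair (grey; circle, square and diamond for numbers 1, 2 and 3). Tnfrsf11a at 0.47 and Lgr4 at -0.56 are the 2 filled points.

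Oscar (ENSMUSG00000054594, chromosome 7, 3609813 to 3616157), which binds collagen and costimulates osteoclast precursors, was at 4.77, 3.43 and 6.70 CPM in NR libraries 1, 2 and 3 and at 6.74, 5.69 and 6.65 CPM in R libraries 1, 2 and 3. NR library 3 reached the R level and the other 2 NR libraries lay under all R libraries. The fitted log2 difference was 0.34 (SE 0.21, 95% interval -0.14 to 0.82, edgeR adjusted p 0.410), and it ran from 0.13 without NR library 2 to 0.62 without NR library 3.

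Traf6 (ENSMUSG00000027164, chromosome 2, 101678429 to 101701669), the ubiquitin ligase that docks on RANK, was at 69.2, 66.0 and 68.3 CPM in NR libraries 1, 2 and 3 and 72.8, 66.2 and 78.7 CPM in R libraries 1, 2 and 3. R library 2 lay inside the NR range and the other R libraries above it. The fitted log2 difference was 0.10 (SE 0.07, 95% interval -0.06 to 0.25, edgeR adjusted p 0.474).

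Fos (ENSMUSG00000021250, chromosome 12, 85473890 to 85477273) was at 7.38, 6.43 and 10.3 CPM in NR libraries 1, 2 and 3 and 8.43, 9.48 and 12.2 CPM in R libraries 1, 2 and 3. NR library 3 lay above 2 of the R libraries, although within each same-numbered pair R was the higher, by 0.19, 0.56 and 0.25 on the log2 scale. A gene was higher in all 3 pairs for 22.3% of the genes tested. Its fitted log2 fold change was 0.31, with a 95% interval of -0.12 to 0.75 (edgeR adjusted p 0.398).

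Nfatc1 (ENSMUSG00000033016) was at 74.5, 77.9 and 85.7 CPM in NR libraries 1, 2 and 3 and 96.3, 89.3 and 91.9 CPM in R libraries 1, 2 and 3. The groups did not overlap, by a margin of 85.7 against 89.3 CPM. The fitted log2 difference was 0.22 (SE 0.06, 95% interval 0.08 to 0.36), and the edgeR adjusted p of 0.0704 missed the threshold. It was called in 4 of 13 alternatives: without NR library 3 (0.0291), with no filter on low counts (0.0448), by DESeq2's Wald test (0.0484) and under library totals without AY036118 (0.0477). With the replicate number as a block it was not called (0.0888).

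The other genes of the pathway were read from 11 lists of 121 genes found in the table, 116 of which were tested. Of these 10 rose and 6 fell, with 69 log2 fold changes above 0 and a median of 0.05. Of all genes tested 7.8% were called, 4.56% higher and 3.24% lower, and 9477 of 18757 were above 0. That count was 7, all higher, under library totals alone, 10 without NR library 2 and 10 without R library 1. It was 27 both with no filter on low counts and by DESeq2's Wald test.

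**Figure D4:**
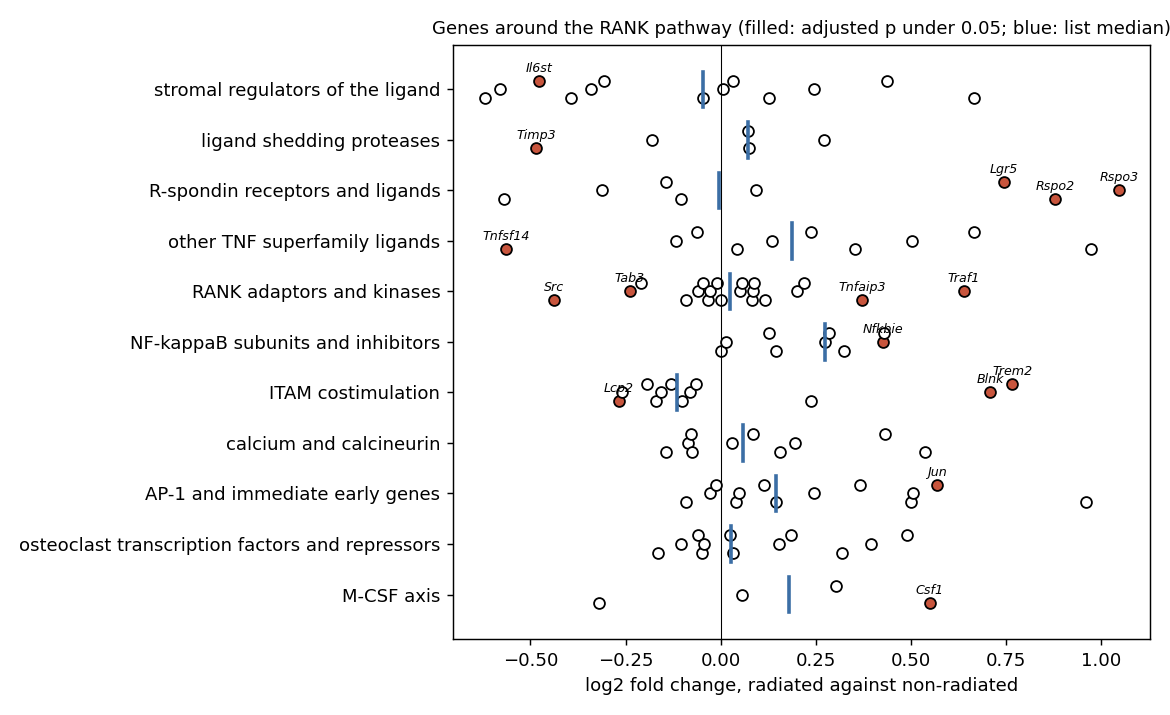
Log2 fold change, radiated against non-radiated, of each tested gene in the 11 pathway lists; filled points had an edgeR adjusted p under 0.05 and are named, and the blue line is the list median. All 9 genes of the NF-kappaB list are above 0 (8 of 9 with DESeq2 size factors), and the R-spondin list holds the highest filled point, Rspo3 at 1.05.

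Of 8 tested R-spondin ligands, other R-spondin receptors and the ubiquitin ligases they act on, 3 rose (2 ligands and 1 receptor), beside 4.56% of all genes tested. Rspo3, an R-spondin ligand, was at 3.51, 2.20 and 2.34 CPM in NR libraries 1, 2 and 3 and 5.63, 4.91 and 6.18 CPM in R libraries 1, 2 and 3 (2.07-fold, log2 fold change 1.05, edgeR adjusted p 0.0112, called in all 13 alternatives). Rspo2 rose 1.84-fold (adjusted p 0.0428). Its call was lost without NR library 2 (0.147), NR library 3 (0.115) or R library 1 (0.138). Lgr5, a homologue of Lgr4 known as a stem cell marker, rose 1.68-fold, from 10.6 ± 0.527 to 17.7 ± 3.55 CPM (n = 3 each, adjusted p 0.0106, called in all 13 alternatives). In the same libraries Lgr4 was lower, so these 2 receptors differed in direction. The list median was 0.00, and between -0.05 and 0.18 over the alternatives.

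Csf1 encodes M-CSF, the other cytokine that osteoclast precursors need beside RANKL. It was at 46.6, 46.6 and 55.8 CPM in NR libraries 1, 2 and 3 and 77.2, 69.5 and 71.7 CPM in R libraries 1, 2 and 3, with no overlap. It rose 1.46-fold (log2 fold change 0.55, SE 0.08, edgeR adjusted p 0.00378) and was called in all 13 alternatives. Its receptor gene Csf1r was at 204 ± 14.6 CPM in NR and 252 ± 32.4 CPM in R (n = 3 each, log2 fold change 0.30, adjusted p 0.0855), without overlap. It was called in 3 of 13 alternatives, among them without R library 3 (0.0439). Csf1r overlaps Hmgxb3 in the table. Of the 4 tested genes of this list 1 was called, beside 7.8% of all genes tested.

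All 9 genes for NF-kappaB subunits and their inhibitors had positive log2 fold changes, with a median of 0.28. Of these 1 passed the test, beside 7.8% of all genes tested. With DESeq2 size factors 8 of 9 were positive, and without NR library 1 or 2 it was 7 of 9. The count called was 0 without NR library 1, NR library 2 or R library 1 and under library totals alone, and 3 without NR library 3, with the replicate block, with no filter on low counts or by DESeq2's Wald test. Nfkbie, an inhibitor that NF-kappaB itself induces, rose 1.34-fold (adjusted p 0.0150), a call lost without NR library 1 (0.0598), NR library 2 (0.0668) or R library 1 (0.0514) and under library totals alone (0.0831). Nfkb2, the subunit of the non-canonical pathway, had a log2 fold change of 0.32 (adjusted p 0.0548). It was called in 5 of 13 alternatives, among them with the replicate block (0.0386) and without NR library 3 (0.0184). Of 20 adaptors and kinases 2 rose and 2 fell, around a median of 0.03, beside 4.56% and 3.24% of all genes tested.

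Tnfaip3, which encodes the NF-kappaB brake A20, rose 1.29-fold (35.3 ± 0.909 to 45.7 ± 1.09 CPM, n = 3 each, edgeR adjusted p 0.00527). It was called in 12 of 13 alternatives, and not under library totals alone (0.133). Traf1, also induced by NF-kappaB, rose 1.56-fold (0.0198). That call was lost without NR library 1 (0.0721), NR library 2 (0.0790), R library 1 (0.0798) or R library 2 (0.0527). Src, a kinase that osteoclasts need for their ruffled border, fell to a level 1.36-fold lower (0.0301). That call was lost without NR library 1 (0.0575), NR library 3 (0.0550), R library 1 (0.0885) or R library 3 (0.0694), and under library totals alone (0.698). Tab3, a partner of the kinase TAK1 downstream of TRAF6, fell, with a log2 fold change of -0.24 (0.0444), and it was called in 4 of 13 alternatives and not with the replicate block (0.0709) or in any fit that left out 1 library other than NR library 3.

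Of 12 genes for ITAM costimulation, the arm in which Oscar acts, 2 rose and 1 fell, beside 4.56% and 3.24% of all genes tested. In this list 3 log2 fold changes were above 0 and 9 below, with a median of -0.12. Under library totals alone 9 of 12 were above 0 and the median was 0.09. Trem2, a costimulatory receptor of macrophages and osteoclast precursors, was at 12.9, 13.5 and 13.6 CPM in NR libraries 1, 2 and 3 and 25.5, 20.6 and 22.1 CPM in R libraries 1, 2 and 3. The adaptor gene Blnk rose 1.64-fold (edgeR adjusted p 0.000930). Blnk is also a B cell gene, and the 7 B cell markers summed to 420 to 455 CPM in NR and 667 to 809 CPM in R. The part of B cells in the Blnk value was not tested. Lcp2, another adaptor, fell to a level 1.20-fold lower (0.00996). It was called in 12 of 13 alternatives, and not under library totals alone (0.868).

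Of 13 tested AP-1 and immediate early genes 10 had positive log2 fold changes, with a median of 0.15. Of these 1 rose, beside 4.56% of all genes tested. The median was 0.08 without NR library 1, 0.09 without NR library 2, 0.36 without NR library 3 and 0.33, with 13 of 13 positive, under library totals alone. The gene that rose was Jun, a partner of Fos in AP-1, at 5.35, 4.71 and 5.83 CPM in NR libraries 1, 2 and 3 and 8.14, 7.94 and 7.57 CPM in R libraries 1, 2 and 3 (1.48-fold, edgeR adjusted p 0.0198). Its call was lost without NR library 1 (0.0609), NR library 2 (0.0749), R library 1 (0.0795) or R library 2 (0.0525) and under library totals alone (0.0736). Jun overlaps the antisense gene Junos, which held more counts, and the strand setting of the counting is not given, so its value is uncertain. Jund was at a log2 fold change of 0.37 (0.0962).

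No gene passed the test among 10 for calcium and calcineurin signalling or among 12 osteoclast transcription factors and repressors, with medians of 0.06 and 0.03. By edgeR 5 of 10 and 3 of 12 had an unadjusted p under 0.05, beside 21.5% of all genes tested. DESeq2's Wald test called 1 and 2 of them. The median of the osteoclast factors was -0.02 without NR library 2, and the medians were 0.24 and 0.21 under library totals alone. Nfatc2, a relative of Nfatc1, had a log2 fold change of 0.43 (adjusted p 0.0626), which was a call without R library 3 (0.0235) and in 3 other alternatives. Itpr2, a calcium channel of the endoplasmic reticulum, was at 0.16 (0.107). Mitf, a factor that acts with PU.1 on osteoclast genes, was at 0.40 (0.0510). It was called in 4 of 13 alternatives, the replicate block (0.0289) among them. Prdm1, a repressor that relieves brakes on NFATC1, was at 0.49 (0.128). It was called in 4 of 13 alternatives, among them with the block (0.00988) and without R library 2 (0.0348).

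Of 13 tested stromal regulators of RANKL 1 changed, beside 7.8% of all genes tested. Il6st, the shared receptor chain of interleukin-6 cytokines, fell from 238 ± 8.19 to 171 ± 12.6 CPM (n = 3 each, log2 fold change -0.48, edgeR adjusted p 0.00254). It was called in 12 of 13 alternatives, and not under library totals alone (0.637). Vdr, the vitamin D receptor that induces Tnfsf11, was at -0.39 (0.0644) and was called in 2 of 13 alternatives. The list median was -0.05, and 0.15 under library totals alone. Among 5 proteases and inhibitors that bear on shedding of the membrane-bound ligand, Timp3, which inhibits ADAM17, fell from 151 ± 4.57 to 108 ± 2.02 CPM (n = 3 each, log2 fold change -0.48, adjusted p 0.000533). This call too held in 12 of 13 alternatives, and not under library totals alone (0.617). Mmp14, a protease that cleaves RANKL, was at 0.27 (0.0769) and was called in 2 of 13 alternatives.

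Of 10 tested ligands of the TNF superfamily other than Tnfsf11, 1 was called, beside 7.8% of all genes tested. Tnfsf14, also known as LIGHT, fell to a level 1.48-fold lower (12.01 ± 0.986 to 8.13 ± 1.01 CPM, n = 3 each, edgeR adjusted p 0.0220). Its call was lost without NR library 2 (0.0716), NR library 3 (0.0529) or R library 3 (0.0548), and under library totals alone (0.606). Lta, encoding lymphotoxin alpha, had a log2 fold change of 0.97 (0.132) at under 1 CPM in every library.

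Cells known as sources of the ligand differed in their markers. The osteoblast gene Sp7 (log2 fold change -0.51, edgeR adjusted p 0.0814, 0.0117 with the replicate block), the osteocyte gene Sost (-0.47, 0.197) and the stromal gene Cxcl12 (-0.28, 0.0515) had negative values, and none of the 3 passed the test. Sp7 and Cxcl12 were each called lower in 4 of 13 alternatives, and Sost in 0. Other markers of these lists were called in both directions and are named after their values were seen. Among 7 osteocyte markers Phex fell (-1.04, 0.00909) and Fgf23 rose (2.295, 0.0107), and among 6 marrow stroma markers Lepr fell (-0.48, 0.00381) and Adipoq, also a fat cell gene, rose (1.02, 0.00191). Each list held 1 call in each direction in every fit that left out 1 library, and the marrow stroma list held no lower call under library totals alone. The fat cell gene Plin1 rose (3.60, adjusted p 9.61e-05 by edgeR). Of 7 osteoblast markers 3 were called lower. That count was 5 without NR library 2, with the replicate block or with no filter on low counts, 2 without NR library 1, NR library 3, R library 2 or R library 3, and 1 under library totals alone. All 7 B cell markers were called higher, and 6 of 7 under library totals alone. The part of each source in the Tnfsf11 level was not tested.

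**Figure D5:**
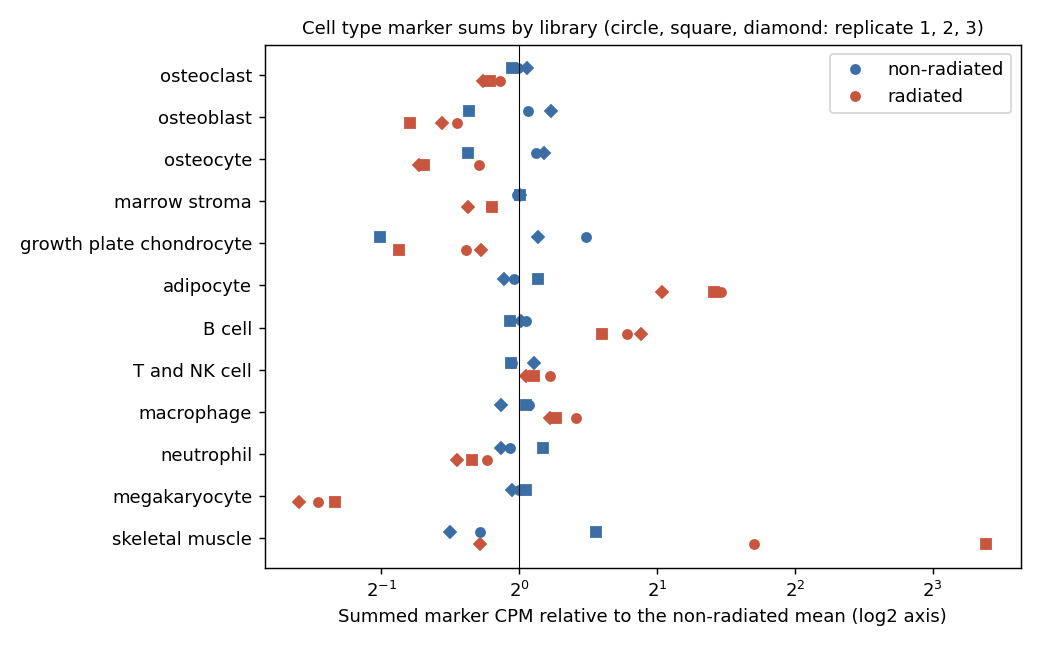
Summed CPM of the markers of each cell type in each library, relative to the non-radiated mean, on a log2 axis; colours mark the groups and symbols the replicate number. Macrophage, B cell and adipocyte sums are higher in every radiated library than in any non-radiated one. Megakaryocyte, neutrophil (8077 to 9371 against 10076 to 12441 CPM), osteoclast, osteoblast and marrow stroma sums are lower in every radiated library. Without Itgb3, Car2 and Mmp9 the osteoclast sums overlap, and none of the 7 neutrophil markers was called. Skeletal muscle is widest among the radiated libraries.

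The genes most like 3 members were sought by Pearson's r of log2 CPM over the 6 libraries, limited to genes averaging 5 CPM or more. For Tnfsf11 they were Ighg3 and Serpinh1 (r of 0.980 for both) and Zfp790 (0.974). For Tnfrsf11b they were Sdk2 (0.954), Oaz2 (0.9498) and BC100451 (0.948). For Tnfrsf11a they were Polk (0.998), 1700021K19Rik (0.997) and Gm8369 (0.997), and there the 6 libraries fall into the 2 groups, so r largely restates the difference between them. These are the highest of 11904 to 11905 values each, computed over 6 libraries, and are a description. Within a library all genes share its depth and scaling.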

How the data were processed

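The deposited table gives raw counts and RPKM per gene for 6 libraries, 1 column each, per the file headers. The raw counts deposited by the authors were used for every test. RPKM deposited by the authors (counts scaled by gene length and library size) served only as an alternative for the Tnfsf11 to Tnfrsf11b ratio. The submitters' processing notes name bcl2fastq, STAR 2.5.2b, Subread, featureCounts and build mm10; per the labels' protocols a stranded mRNA kit was used. Annotation and strand setting are not given in the sources used here. No member overlaps another gene of the table.

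The test was edgeR 4.0.16 (R 4.3.3) on raw counts: filterByExpr (minimum count 10, minimum total 15), TMM, glmQLFit and glmQLFTest with the group as the only term, and Benjamini-Hochberg adjustment over 18757 genes, called under 0.05. The standard error is the log2 fold change over the square root of F. The ratio was tested by exact permutation over 20 labelings (SciPy 1.17.1). Alternatives were DESeq2 1.42.0 (size factors, Wald test), library totals, no filter, limma-voom (limma 3.58.1), a replicate block, each library left out and, chosen after seeing the data, library totals without AY036118. On data simulated for 18757 genes the fit recovered 37.3% of genes at 1.4-fold, 85.1% at 2-fold and 100% at 4-fold.

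Deviations from group means correlated across genes for same-numbered libraries (0.166, 0.277 and 0.187) and not for others (at most -0.00824). Centring on the group mean makes a library's values against the other group nearly balance. Negative values for the others are therefore no separate evidence of pairing. The numbers were used as pairs in the block and in the same-numbered differences only. The labels do not say what a number marks, and a shared animal and a shared batch cannot be told apart. Library pairs within a group differed by more than sampling noise (chi-square per degree of freedom 16.6 or more). Of 210 list entries 209 were found, 1 through its gene ID. Named genes are the 8 members, the called genes of each list (up to 6, and at least the 2 with the smallest p), a few cell markers, and the 3 genes most like Tnfsf11, Tnfrsf11b and Tnfrsf11a. The members and lists were chosen with earlier results of these data known.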

Additional observations from a re-analysis of the deposited data

How the results depend on the processing

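The count of called genes was 1463, and 764 to 1376 when 1 library was left out (764 without R library 1, 819 without NR library 2, 905 without NR library 1). Of these 1463 genes 58.5% were higher; the share was 85.4% of 1000 genes under library totals alone. The count of members called was 2, and 0 to 2 when 1 library was left out, 0 under library totals alone. The count of pathway genes called was 16, and 10 to 18 when 1 library was left out, 7 under library totals alone, and 27 with no filter on low counts and by DESeq2's Wald test. With the replicate block the counts were 1670, 2 and 22, and the ratio difference was 0.11 (exact sign-flip p 0.5, where 3 pairs allow no p under 0.25). The ratio difference was 0.02 to 0.19 when 1 library was left out, and 0.11 with 0.5 added to each count and from the deposited RPKM. Beside the calls gained and lost with the block in the report (Nfkb2, Mitf, Prdm1, Sp7 and Tab3) it changed no call of a member or of another named pathway gene. The log2 fold change of Tnfsf11 was 0.065 under library totals alone, and -0.26 to 0.078 when 1 library was left out, positive without NR library 3 or R library 2. It was -0.066 to 0.23 for Acp5, negative without NR library 2 or R library 1, and -0.081 to 0.21 for Ctsk, negative without NR library 2. The cause of these shifts was not tested. With 64 to 175 counts of Tnfsf11 per library, depth limits the ratio.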
